A study of Homo sapiens with 30 samples.

Results

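The steady level of an mRNA was set against the amount of transcription of its gene in DTMYC cells that received only the solvent DMSO. The rule took every gene symbol with 1 row in the RNA-seq table and 1 row in the PRO-seq table, and compared the RNA density over exons with the PRO-seq density over the gene body. It found 15424 symbols, among 18132 entries in the RNA-seq table and 20582 in the PRO-seq table. The untreated DTMYC libraries used were 5 of the 30 samples of the series: 3 RNA-seq libraries after 24 h in DMSO and 2 PRO-seq libraries after 4 h in DMSO. The same measures came from 3 RNA-seq libraries after 24 h and 2 PRO-seq libraries after 4 h in 500 nM dTAG47, and peaks at start sites from DTMYC cells in DMSO came from 2 MYC ChIP-seq libraries at 4 h and 3 ATAC-seq libraries at 24 h.

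DTMYC is a derivative of G401, an established human line from a malignant rhabdoid tumour of the kidney. A lentivirus supplies MYC with an HA and FKBP12F36V tag at its N terminus, and the cell's own MYC gene was then removed with CRISPR-Cas9, so untreated DTMYC cells are edited cells and not parental G401. dTAG47 is a small molecule that directs proteins with this tag to degradation. The labels do not say whether DTMYC is 1 clone, and they do not say whether the replicates were separate cultures, so the p-values measure the spread between these libraries, which may be technical.

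The amount of an mRNA in a cell at steady state depends on how fast it is made and on how fast it is lost. PRO-seq labels the RNA in the active site of engaged RNA polymerases, and its density over a gene body serves as a measure of how much polymerase is transcribing the gene. RNA-seq of total RNA after removal of ribosomal RNA measures mostly mature mRNA, with some unspliced RNA. mRNAs of immediate early genes and of cytokines are known for rapid decay, often through AU-rich elements in the 3′ untranslated region, while mRNAs of metabolic and structural proteins are known for long lives. Neither assay measures decay, and splicing, export, processing and the counting of reads also enter the ratio of both densities.

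RNA-seq libraries of untreated DTMYC cells summed to between 29015327 and 35152287 counts, and their PRO-seq libraries to 23256313 and 19389283 counts in gene bodies. Of the 15424 symbols, 15336 had rows at overlapping positions and 88 did not. A gene body of under 1000 bases took out 392 genes. A further 3586 genes had a mean count under 20 in both assays, 746 only in RNA-seq and 434 only in PRO-seq, which left 10178 genes to test. VIM, KRT8 and KRT18, which rhabdoid lines express, were among the 7 genes of 8 in a list of rhabdoid line markers present in both tables, with mean RNA counts between 603.3 and 133437. SMARCB1, the gene lost in these tumours, had 0 and 2 gene body counts in the PRO-seq libraries, and its mRNA was not analysed here. Of the markers of other cell types present in both tables, 1 of 9 haematopoietic, 3 of 15 kidney epithelial and 3 of 8 neuronal genes reached a mean RNA count of 20. Some of these were well expressed. The neuronal NEFH (3687), the haematopoietic CORO1A (2709) and the kidney genes PAX2 (806) and LHX1 (633) lay above the lowest rhabdoid marker, CDKN2A (603.3). Counts of RNA replicates 1 and 3 were the closest pair, with a chi-square of 2.99 per degree of freedom, against 11.4 and 14.1 for the pairs with replicate 2 and 18.9 for both PRO-seq libraries, so no pair agreed within sampling noise.

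mRNA and transcription were related across genes, with a wide spread. Densities are counts per kilobase scaled to a common library depth, with the scaling given in the account of the processing. The median gene had an mRNA density of 8.30, and the median gene body density was 1.77. Across the 10178 genes the Pearson correlation of the log2 densities was 0.782 and the Spearman correlation was 0.742, and it was between 0.732 and 0.745 in the 6 pairs of an RNA-seq with a PRO-seq library. These are correlations across genes, which share their libraries and are not replicates, and no p is given. Replicates of 1 assay correlated far more closely, at 0.996 to 0.998 between RNA-seq libraries and at 0.988 between PRO-seq libraries. On the log2 scale the SD over genes was 2.21 for mRNA density and 1.84 for gene body density.

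The ratio of mRNA density to gene body density was centred so that the median gene is at a log2 ratio of 0. At that point the mRNA density is 5.08 times the gene body density, a factor that depends on the units of both assays. The ratio is relative to that gene, and a shift shared by all genes would not be seen. The SD of the log2 ratio over genes was 1.38, with the middle 50% of genes between −0.88 and 0.81, and 57.1% of genes lay within 2-fold of the median gene. The 95th percentile (1.93) and the 5th percentile (−2.50) lay 21.6-fold apart. The spread between libraries was much smaller than that between genes, with a median over genes of 0.13 for the SD over the 6 pairs of libraries and a median standard error (SE) of 0.10.

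Genes were called where edgeR's test against a ratio of 4-fold gave a Benjamini-Hochberg adjusted p under 0.05. That held for 8.25% of the genes tested: 263 genes with high mRNA for their transcription (2.58%) and 577 with low mRNA (5.67%). The ratio had a Spearman correlation of −0.03 with gene body density and of 0.58 with mRNA density, both of which enter the ratio. In the fifth of genes with the most transcription the median mRNA density was 29.3 and the median log2 ratio −0.11, with 64 genes high and 181 low. In the fifth with the least, the median mRNA density was 1.13 and the median log2 ratio 0.00, with 68 high and 71 low. Counts of polymerase near the promoter had a Spearman correlation of 0.457 with mRNA density over 9945 genes. The 0.742 for gene body density is over all 10178 genes tested, so the sets of genes differ.

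**Figure D1:**
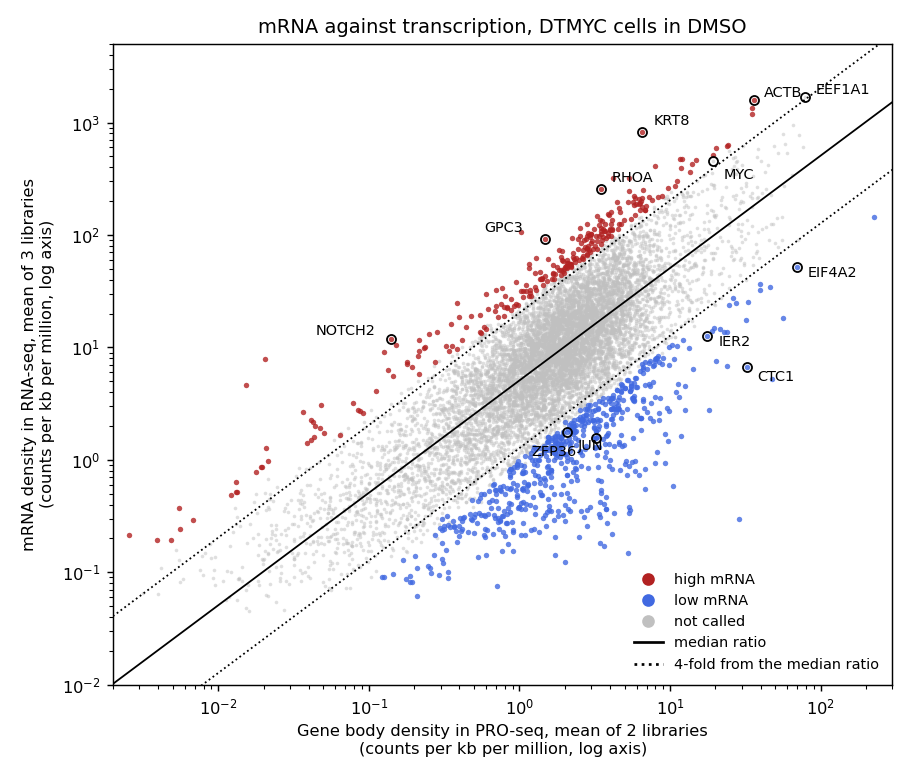
mRNA density (vertical, log axis) against gene body density (horizontal, log axis) of the 10178 genes tested, each a point at the mean of its DMSO libraries, in red where mRNA was called high, in blue where it was called low and in grey where neither. The solid line is the median ratio and dotted lines lie 4-fold above and below it. KRT8, GPC3, RHOA and NOTCH2 stand above the upper dotted line and CTC1, EIF4A2, IER2 and JUN below the lower one, at levels of transcription that many grey points share.

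The sequences shown first are the AU-rich sites that the list of short-lived mRNAs is known for. The letters TATTTAT, the core of such an element in the DNA strand of the mRNA, were searched in the 3′ untranslated regions of the canonical transcripts on the sense strand, overlapping matches included. 3621 of 10026 genes with a resolved 3′ untranslated region held at least 1 match (36.1%). The lines below give 29 bases around 1 match each, 5′ to 3′, with the match in capitals, from GENCODE v44 placed on GRCh37. JUN, FOSB and ZFP36 were called low, FOS lay near the low threshold, and CLIC4 and GHITM were called high.
JUN, chr1:59246491-59246519, minus strand: ttgcttatgaaTATTTATaacagcattct
FOSB, chr19:45977789-45977817, plus strand: cattccttagcTATTTATccctttcctgg
ZFP36, chr19:39899821-39899849, plus strand: aatgggcccttTATTTATgacgactttat
FOS, chr14:75748763-75748791, plus strand: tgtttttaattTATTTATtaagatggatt
CLIC4, chr1:25167844-25167872, plus strand: ggtacaagaaaTATTTATgtattttttgg
GHITM, chr10:85912947-85912975, plus strand: ttatttttgcaTATTTATtgaactgtcta
The match alone did not separate the calls: it was present in 23.3% of genes called high, 28.5% of genes called low and 36.9% of the others. The median 3′ untranslated region was 945 bases in genes called high, 917 bases in genes called low and 1415 bases in the others, and a longer region has more chances of a match. Genes with 3 or more matches had a median log2 ratio of −0.26 (702 genes), against 0.04 in genes with none (6405 genes). Calls of low mRNA were not more frequent with 3 or more matches, at 23 of the 702 genes, against 394 of the 6405.

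The genes with high mRNA for their transcription are described first. By the rule for named genes these are the 12 highest among genes called, with at least 200 counts on average in both assays, a gene body of at least 5000 bases and no other entry overlapping or within 5000 bases upstream on the same strand. 194 high genes met this rule and 136 low ones did.

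Several of the 12 build the cell's skeleton, its surface and its energy supply. KRT8, at chr12:53290971-53343650 on the minus strand (hg19), encodes an intermediate filament keratin. KRT8 had mRNA densities of 832, 782 and 856 and gene body densities of 6.77 and 6.34. Its log2 ratio was 4.63 (SE 0.11, adjusted p = 2.75e-10), 24.8-fold above the median gene. The PRO-seq entry of KRT8 runs over much more than the gene, since the canonical transcript spans 14.97% of it, and the density is an average over the whole entry. HSP90AA1 (chr14:102547075-102606086, minus strand), a cytosolic chaperone, is a like case at 10.7% of its entry. HSP90AA1 had mRNA densities of 315, 330 and 322 and gene body densities of 4.00 and 4.39, with a log2 ratio of 3.92 (SE 0.10, adjusted p = 9.39e-10). Both genes therefore have a gene body density that includes bases outside the transcript, and by how much that lowers it was not tested.

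RHOA (chr3:49396579-49449526, minus strand) encodes a small GTPase that organises actin fibres. RHOA had mRNA densities of 251, 261 and 258 and gene body densities of 3.38 and 3.54, for a log2 ratio of 3.87 (SE 0.09, adjusted p = 4.20e-10). 34.5% of its exon bases also lie in exons of another gene on the same strand. MSN (chrX:64887511-64961793, plus strand), or moesin, links actin to the plasma membrane. MSN had mRNA densities of 63.5, 60.7 and 64.0 and gene body densities of 1.36 and 1.23, and its log2 ratio was 3.25 (SE 0.09). In RHOA and MSN alike the values of the RNA-seq libraries lay close together, and so did those of the PRO-seq libraries.

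GPC3 (chrX:132669776-133119673, minus strand) encodes glypican 3, a proteoglycan of the cell surface that embryonal tumours often express. GPC3 has the longest gene body of the 12, with 448898 bases. Its mRNA densities were 92.8, 91.3 and 90.4 and its gene body densities 1.55 and 1.42, so the log2 ratio was 3.60 (SE 0.09, adjusted p = 1.25e-09), 12.2-fold above the median gene. NOTCH2 (chr1:120454176-120612317, minus strand) is a receptor of the Notch family. NOTCH2 had mRNA densities of 11.9, 11.8 and 12.1 and gene body densities of 0.144 and 0.138, with a log2 ratio of 4.06 (SE 0.09). PODXL2 (chr3:127348039-127391652, plus strand), a sialomucin of the cell surface, had mRNA densities of 30.1, 27.2 and 31.9 and gene body densities of 0.499 and 0.693, with a log2 ratio of 3.30 (SE 0.14). IFNGR2 (chr21:34775202-34809828, plus strand), a chain of the interferon gamma receptor, had mRNA densities of 15.9, 16.2 and 16.7 against 0.380 and 0.323 in the gene body, with a log2 ratio of 3.18 (SE 0.11). NOTCH2 and IFNGR2 reached a high ratio with ordinary mRNA levels and little transcription, whereas GPC3 combined a high mRNA level with transcription close to the median gene.

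ATP5B (chr12:57031959-57039852, minus strand) encodes the catalytic beta subunit of the mitochondrial ATP synthase. ATP5B had mRNA densities of 418, 402 and 425 and gene body densities of 7.64 and 8.16, with a log2 ratio of 3.37 (SE 0.09, adjusted p = 7.92e-09). NSF (chr17:44668035-44834828, plus strand), the ATPase that takes apart membrane fusion complexes, had mRNA densities of 13.6, 13.4 and 14.2 and gene body densities of 0.285 and 0.281, with a log2 ratio of 3.25 (SE 0.09). NOMO1 (chr16:14927643-14990014, plus strand) encodes a protein of the endoplasmic reticulum membrane. NOMO1 had mRNA densities of 19.5, 18.02 and 18.9 and gene body densities of 0.425 and 0.367, with a log2 ratio of 3.23 (SE 0.10). NOTCH2, NSF and NOMO1 have near-identical copies elsewhere in the genome, and reads that fit several places may be counted differently in both assays, so their values are uncertain.

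HIST1H2BD (chr6:26158349-26171576, plus strand) is a gene for histone H2B with most of its PRO-seq counts in the promoter-proximal region. HIST1H2BD had mRNA densities of 102, 85.1 and 132 and gene body densities of 0.890 and 1.16, with a log2 ratio of 4.36 (SE 0.19). Its canonical transcript spans 485 bases, 3.67% of the entry, and the gene body leaves out 999 bases of the span. The promoter-proximal region held 6905 and 9777 counts, against 248 and 280 in the gene body. How much of the gene's own transcription lies in the counted gene body was not tested. With promoter-proximal and gene body counts added over the whole span, the log2 ratio of HIST1H2BD was −0.49 and was not called. IFNGR2, at 2.25, stayed above the threshold with an adjusted p of 0.0383.

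**Figure D2:**
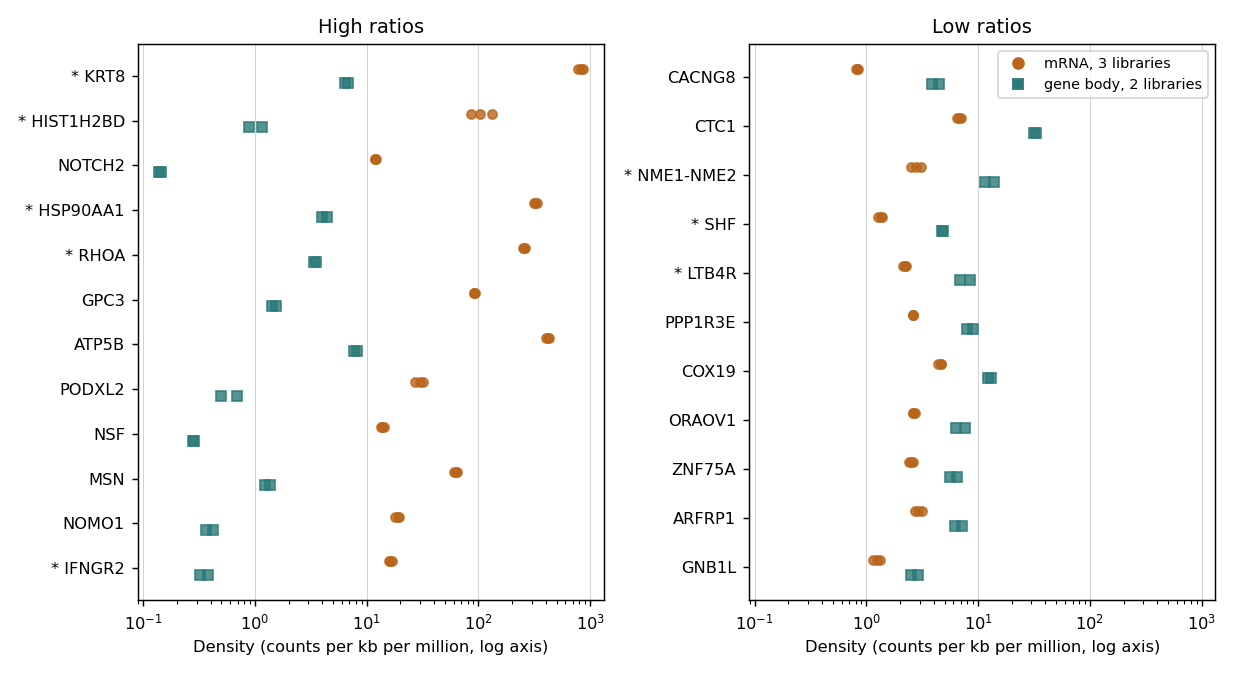
Density in each DMSO library (horizontal, log axis) of the 12 genes with the highest ratio (left) and of the low genes described in the text (right) by the rule for named genes, with circles for the 3 RNA-seq libraries and squares for the 2 PRO-seq libraries. A star marks genes that share at least 10% of their exon bases with another gene or whose canonical transcript spans under 80% of the PRO-seq entry. In KRT8 the circles sit at 782 to 856 and the squares at 6.34 to 6.77, and in CTC1 the circles sit at 6.45 to 6.95 and the squares at 31.6 to 33.0.

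Among genes with separate exons on both strands and an entry that matches the canonical transcript, a selection added after the values were seen, 165 high genes met the rule. The next highest there were PSAP, GHITM, YWHAQ, LAPTM4B and EPRS. PSAP, the precursor of lysosomal activators of lipid breakdown, had mRNA densities of 247, 237 and 248 and gene body densities of 5.35 and 5.27, with a log2 ratio of 3.18 (SE 0.09). EPRS, which charges the tRNAs for glutamate and proline, had mRNA densities of 49.4, 54.6 and 49.2 and gene body densities of 1.12 and 1.20, with a log2 ratio of 3.12 (SE 0.09). GHITM, YWHAQ (a 14-3-3 protein) and LAPTM4B (a lysosomal membrane protein) each had a log2 ratio of 3.13.

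Among genes with low mRNA for their transcription, those described here by the same rule all had a gene body density above that of the median gene. The rule asks for at least 200 RNA counts, so a gene with so low a ratio mostly enters it with much transcription. CACNG8 (chr19:54466290-54493469, plus strand), an auxiliary subunit of glutamate receptors in neurons, had mRNA densities of 0.845, 0.807 and 0.818 and gene body densities of 3.83 and 4.47, with a log2 ratio of −4.67 (SE 0.10). CTC1 (chr17:8128139-8151413, minus strand), a subunit of the CST complex at telomeres, had mRNA densities of 6.74, 6.45 and 6.95 and gene body densities of 31.6 and 33.0, with a log2 ratio of −4.61 (SE 0.08, adjusted p = 3.28e-11). In both genes every gene body value was above every mRNA value, whereas at the median gene the mRNA density is the higher by 5.08-fold. This order restates their low ratios.

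COX19 (chr7:1004486-1015235, minus strand), an assembly factor of cytochrome c oxidase, had mRNA densities of 4.64, 4.61 and 4.39 and gene body densities of 13.0 and 12.2. The log2 ratio of COX19 was −3.82 (SE 0.08, adjusted p = 4.20e-10). GNB1L (chr22:19775934-19842462, minus strand), a protein of WD repeats, had mRNA densities of 1.14, 1.23 and 1.33 and gene body densities of 2.91 and 2.52, with a log2 ratio of −3.48 (SE 0.10). PPP1R3E (chr14:23765112-23772057, minus strand), which targets protein phosphatase 1 to glycogen, had mRNA densities of 2.61, 2.60 and 2.59 and gene body densities of 8.93 and 7.87, with a log2 ratio of −4.04 (SE 0.10). In these 3 genes, too, every gene body value was above every mRNA value.

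In 3 further genes the exon length of the RNA-seq table was far longer than the canonical transcript. ARFRP1 (chr20:62329995-62339355, minus strand), a small GTPase of the Golgi, had mRNA densities of 3.12, 2.72 and 2.88 and gene body densities of 6.22 and 7.18, with a log2 ratio of −3.54 (SE 0.11). ORAOV1 (chr11:69480332-69490165, minus strand) had mRNA densities of 2.63, 2.73 and 2.62 and gene body densities of 7.66 and 6.38, with a log2 ratio of −3.74 (SE 0.10). ZNF75A (chr16:3355433-3368576, plus strand), a zinc finger gene, had mRNA densities of 2.52, 2.62 and 2.38 and gene body densities of 6.49 and 5.58, with a log2 ratio of −3.61 (SE 0.10). Their summed exons were 3.02, 3.17 and 2.82 times as long as the canonical transcript. With the canonical length the log2 ratio was −2.50 for ARFRP1, −2.63 for ORAOV1 and −2.67 for ZNF75A, each still called.

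The remaining 3 lacked separate exons or an entry that matches the canonical transcript. NME1-NME2 is annotated as a transcript that reads through 2 neighbouring genes, and 87.4% of its canonical exon bases lie in exons of other genes on the same strand. NME1-NME2 had mRNA densities of 2.78, 2.49 and 3.06 and gene body densities of 13.8 and 11.5, with a log2 ratio of −4.53 (SE 0.11), and −2.82 with the canonical length. LTB4R, a leukotriene receptor, shares 11.2% of its exon bases and had a log2 ratio of −4.14 (SE 0.12). SHF, an adaptor protein, has a canonical transcript over 61.1% of its entry and had a log2 ratio of −4.19 (SE 0.09). How much of their ratio comes from the assignment of reads was not tested.

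Calls of low mRNA went along with the layout of the genes. At least 10% of the canonical exon bases were shared with exons of another gene on the same strand in 2.28% of genes called high, 27.0% of genes called low and 5.73% of the others. Another PRO-seq entry ended within 5000 bases upstream on the same strand in 4.94% of genes called high, 31.2% of genes called low and 10.0% of the others. What part the assignment of reads in shared exons, or polymerase that has passed the end of a neighbour, has in these calls was not tested. 212 genes called high and 286 called low had separate exons and a matching span. Refitted on the 7803 genes that did, the test called 207 high and 277 low, against 263 and 577 of all 10178 genes. The share called low was smaller there, and the share called high was about the same. Without genes that have an entry within 5000 bases upstream, which left fewer genes to test, the test called 246 high and 389 low. With the length of the canonical transcript in place of the deposited exon length it called 371 high and 647 low, of which 167 and 427 were also called with the deposited length. Among genes named here that kept their call, that length gave log2 ratios of 5.57 for KRT8, 2.42 for GHITM, −5.32 for CTC1, −3.59 for SHF, −4.23 for ZNF410 and −2.54 for NDUFA13.

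Genes called low were also shorter. The median gene body was 39998 bases in genes called high, 10405 in genes called low and 30981 in the others. Among genes with separate exons and a matching span it was 37214 bases in genes called high, 10783 in genes called low and 33147 in the others. The median number of exons was 10 in genes called high, 6 in genes called low and 10 in the others. Across all genes the log2 ratio had a Spearman correlation of 0.280 with gene body length and 0.190 with the number of exons. Genes of 1 exon had a median log2 ratio of −1.24 (106 genes), genes of 2 exons −0.85 (365 genes), and genes of more than 20 exons 0.33 (1488 genes). Among separate genes these medians were −0.98 (70 genes), −0.61 (257 genes) and 0.37 (1254 genes). Summed exons made up a median of 8.89% of the span in genes called high, 39.8% in genes called low and 15.9% in the others. Length also enters the computation of both densities, and its part in the ratio was not tested.

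Peaks of open chromatin and of MYC lay at start sites in all classes, least often in genes called low. An ATAC-seq peak in each of 3 DMSO libraries lay within 1000 bases of the start of 81.0% of genes called high, 66.2% of genes called low and 82.9% of the others. A MYC peak in both DMSO ChIP-seq libraries lay there in 11.4% of genes called high, 6.24% of genes called low and 8.77% of the others. These are peak lists that the authors called for each sample alone.

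**Figure D3:**
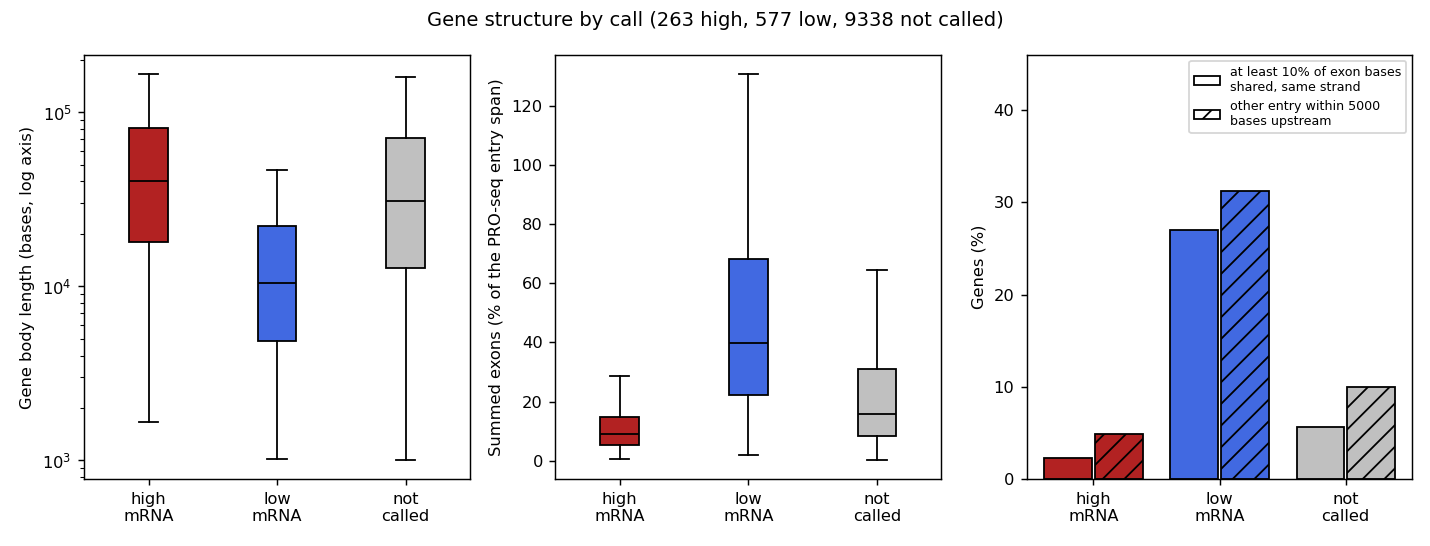
Gene body length (left, log axis), summed exons of the RNA-seq table as a percent of the span of the PRO-seq entry (middle, above 100% where the tables' gene models differ), and percent of genes with shared exons or a close upstream entry on the same strand (right), for genes called high, low or neither. Boxes hold the middle 50% with the median as a line and whiskers reach at most 1.5 times the box, with points beyond not drawn. Genes called low sit at a median of 10405 bases, against 39998 for genes called high and 30981 for the others.

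Gene groups differed in where their members lay, and each is given beside all genes tested (median 0.00, 2.58% high and 5.67% low). Of 28 lists with at least 5 genes tested, 21 had a median above 0. The lists are described by counts and medians, and no test of a list was made.

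Proteins of the cytoskeleton and of protein folding and turnover lay above the median gene for the most part. Of 37 cytoskeletal genes 9 were called high and none low by edgeR, with a median of 1.36. ACTB, which encodes beta actin, had mRNA densities of 1579, 1511 and 1639 and gene body densities of 41.6 and 30.2. The log2 ratio of ACTB was 3.11 (SE 0.14, adjusted p = 3.42e-06). MYH9 (non-muscle myosin, 2.77), TAGLN2 (transgelin 2, 3.23), EZR (ezrin, 2.57), MYL12B (2.75), ACTN4 (2.46) and CAPZB (2.36) were called high beside MSN and KRT8. At the other end TPM1, a tropomyosin, had a log2 ratio of −0.97, and 1.28 with the canonical length, which is shorter than its summed exons by 6.96-fold. Of 26 cytosolic chaperones 5 were called high and none low, with a median of 1.63. HSP90AB1 had mRNA densities of 1188, 1145 and 1205 and gene body densities of 38.6 and 31.9, with a log2 ratio of 2.72 (SE 0.11), and the chaperonin subunits CCT3 (2.33) and CCT7 (2.65) were called high as well. DNAJB6 was lowest at −1.02, and had 1.02 with the canonical length.

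The proteasome, which degrades tagged proteins, had a median of 1.61 over 31 genes, with 3 called high and 1 low. PSMB3 (2.98), PSMB7 (2.46) and PSMA7 (2.27), subunits of the core particle, were called high. PSMA6 was called low at −3.37, and 81.4% of its exon bases are shared with another gene on the same strand. PSMA6 had −1.26 with the canonical length and was not called. The median was 1.68 in the 23 proteasome genes with separate exons and matching spans, where PSMA6 is not included. For the median gene of this list the mRNA density was 61.9 and the gene body density 4.43, against 8.30 and 1.77 over all genes.

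Genes of metabolism and translation lay above the median gene for the most part. Of 17 glycolytic genes 4 were called high and none low, with a median of 1.46, and 1 of these 4, ENO1, is among the 8 with separate exons and matching spans. ENO1, or enolase, had mRNA densities of 639, 598 and 670 and gene body densities of 26.3 and 22.3, with a log2 ratio of 2.37 (SE 0.11, adjusted p = 0.00449). HK1 (3.43), LDHB (2.40) and ALDOA (2.35) were called high too, and GAPDH had 1.99, which did not pass the threshold but did with the canonical length (2.65). The entry of HK1 is only 63.0% covered by the canonical transcript. Of 19 aminoacyl-tRNA synthetases EPRS and GARS (2.29) were called high, with a list median of 1.44. Of 39 translation factors EEF2, EIF3I and PABPC1 were called high and EIF4A2 low, with a median of 1.02. EEF2, which moves the ribosome along the mRNA, had mRNA densities of 1357, 1259 and 1410 and gene body densities of 37.6 and 32.5, with a log2 ratio of 2.92 (SE 0.12). EEF1A1, the other abundant elongation factor, had 2.07 (SE 0.12, adjusted p = 0.961), and passed without PRO-seq replicate 1 (2.21) and with the canonical length (2.28).

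EIF4A2, an RNA helicase of translation initiation, went the other way. EIF4A2 had mRNA densities of 51.0, 57.0 and 48.8 and gene body densities of 74.4 and 64.1, with a log2 ratio of −2.75 (SE 0.09, adjusted p = 5.66e-06). The gene holds 5 small nucleolar or Cajal body RNA genes in its span, and its summed exons were 3.25 times as long as the canonical transcript. With the canonical length the log2 ratio of EIF4A2 was −1.60 and was not called. Such small RNA genes lay in 1.90% of genes called high, 1.73% of genes called low and 2.70% of the others.

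Ribosomal protein genes depended on the length used. The 63 cytosolic ribosomal protein genes had a median mRNA density of 242 and a median gene body density of 28.4, with a median log2 ratio of 0.68, 2 called high and 1 low. RPL7 was highest at 2.59 and RPL26 lowest at −2.39, and 65.3% of the exon bases of RPL26 are shared with another gene. RPL7 had 1.31 with promoter-proximal counts added and RPL26 had −0.72 with the canonical length, neither of them called. With the length of the canonical transcript the list median was 2.01, and with gene bodies of at least 5000 bases 0.01. Many copies of these genes in the genome make their counts uncertain. Oxidative phosphorylation genes also depended on the length, with a median over 63 genes of 1.57 with the canonical length, against 0.65 with the deposited length (7 high, 3 low). ATP5B, NDUFB7 (2.95) and COX6B1 (2.68) were among those called high. The 3 called low, NDUFA13, NDUFV2 and NDUFA11, all lacked separate exons or a matching span, and none of the 45 genes with both was called low.

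Genes of cell division, matrix and replication lay above the median gene as well. Of 45 mitotic genes 44 had a log2 ratio above 0, with a median of 1.30 and 4 called high. TPX2, a factor of the mitotic spindle, had mRNA densities of 90.3, 89.7 and 94.3 and gene body densities of 2.50 and 2.41, with a log2 ratio of 2.88 (SE 0.08, adjusted p = 2.07e-07). CCNB2 (2.36), DLGAP5 (2.33) and KIF4A (2.25) were called high, and BIRC5, at −0.68, was the 1 mitotic gene below 0. Of 27 genes of extracellular matrix and adhesion 3 were called high and none low, with a median of 1.46. COL3A1, a fibrillar collagen, had mRNA densities of 101, 97.1 and 96.9 and gene body densities of 3.02 and 3.47, with a log2 ratio of 2.58 (SE 0.09), and LAMC1, a laminin chain, had 2.32. The 46 DNA replication genes had a median of 0.62, with RFC3 (2.30) and RRM1 (2.26) called high. RFC3 was not called with the canonical length (2.07), nor in the dTAG47 libraries (2.10, adjusted p = 0.251). Its canonical transcript spans only 13.0% of its PRO-seq entry, so its gene body density includes bases outside the transcript.

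Immediate early genes were below the median gene for the most part. Of 33 tested, 6 had a log2 ratio above 0, none was called high and 6 were called low, with a median of −0.92. JUN, a subunit of the AP-1 transcription factor, had mRNA densities of 1.60, 1.62 and 2.13 and gene body densities of 2.11 and 2.05. The log2 ratio of JUN was −2.56 (SE 0.20, adjusted p = 0.0205), and the call was lost without RNA replicate 1, without RNA replicate 2 and with DESeq2. FOSB, another subunit, had mRNA densities of 0.838, 0.899 and 0.928 and gene body densities of 1.20 and 1.90, with a log2 ratio of −3.14 (SE 0.20, adjusted p = 0.000156). FOS had mRNA densities of 6.14, 6.40 and 5.58 and gene body densities of 4.75 and 5.95, and its log2 ratio of −2.16 (SE 0.13) did not pass against 4-fold (adjusted p = 0.392). FOS passed with promoter-proximal counts added (−2.60) and without PRO-seq replicate 1 (−2.34).

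ZFP36, which encodes a protein that binds AU-rich elements and promotes decay of the mRNA, was lowest of the list. ZFP36 had mRNA densities of 1.33, 1.30 and 2.07 and gene body densities of 3.04 and 3.44, with a log2 ratio of −3.38 (SE 0.25, adjusted p = 0.000142). Its relative ZFP36L1 had mRNA densities of 35.7, 38.3 and 35.5 and gene body densities of 44.3 and 35.3, with a log2 ratio of −2.47 (SE 0.10), although its canonical transcript spans only 62.9% of the entry. IER2 had mRNA densities of 13.4, 12.7 and 12.03 and gene body densities of 15.3 and 20.1, with a log2 ratio of −2.82 (SE 0.11), and 44.8% of its exon bases face an exon of a gene on the other strand. ID2, an inhibitor of basic helix-loop-helix factors, was called low at −2.29. Not all early genes were low: ATF3 (1.02), MAFF (0.65), EGR1 (0.63) and SRF (0.50) were above the median gene, none of them called, and MCL1 was at −0.66. The canonical transcript of ATF3 spans only 21.7% of its entry, so its gene body density includes bases outside the transcript. The genes of this list are short, and with gene bodies of at least 5000 bases the list median was −0.49.

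Of 15 genes for cytokines, growth factors and their signalling with known short-lived mRNAs, 1 had a log2 ratio above 0, and the median was −1.54. IRF1, a transcription factor of interferon responses, was the 1 gene called low (−2.77, SE 0.16), and 16.3% of its exon bases face an exon on the other strand. With the canonical length IRF1 had −2.18 and was not called (adjusted p = 0.354). VEGFA (−1.87), LIF (−1.54) and TNFAIP3 (−1.59) were not called, and ICAM1 was the member above 0, at 0.01, a sign that turned in several alternatives. TATTTAT was present in 66.7% of the immediate early genes and 85.7% of the cytokine list, against 36.1% of all genes.

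Zinc finger genes were the largest group below the median gene. Of the 359 tested, 56 were called low (15.6%, against 5.67% of all genes), none was called high, and 34 had a log2 ratio above 0. They were transcribed nearly as much as the median gene but had less mRNA: their median mRNA density was 3.21 and their median gene body density 1.63, against 8.30 and 1.77 over all genes. The median log2 ratio of zinc finger genes was −1.26, and it was −1.39 in the 170 on chromosome 19 and −1.08 in the 189 on other chromosomes. With separate exons and matching spans 258 remained, with a median of −1.23 and 30 called low. With the canonical length the median was −1.54, and with gene bodies of at least 5000 bases −1.36. ZNF493, on chromosome 19, had mRNA densities of 0.0596, 0.104 and 0.105 and gene body densities of 0.331 and 0.339, with a log2 ratio of −4.24 (SE 0.24, adjusted p = 1.86e-06). ZNF594 had mRNA densities of 3.26, 3.58 and 3.08 and gene body densities of 6.96 and 6.18, with a log2 ratio of −3.34 (SE 0.10). ZNF622, the highest of the list, had 1.49. The lowest, ZNF410 (−4.98), shares 88.6% of its exon bases with another gene on the same strand. Many zinc finger genes resemble each other in sequence, so reads that fit several of them are a further uncertainty.

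**Figure D4:**
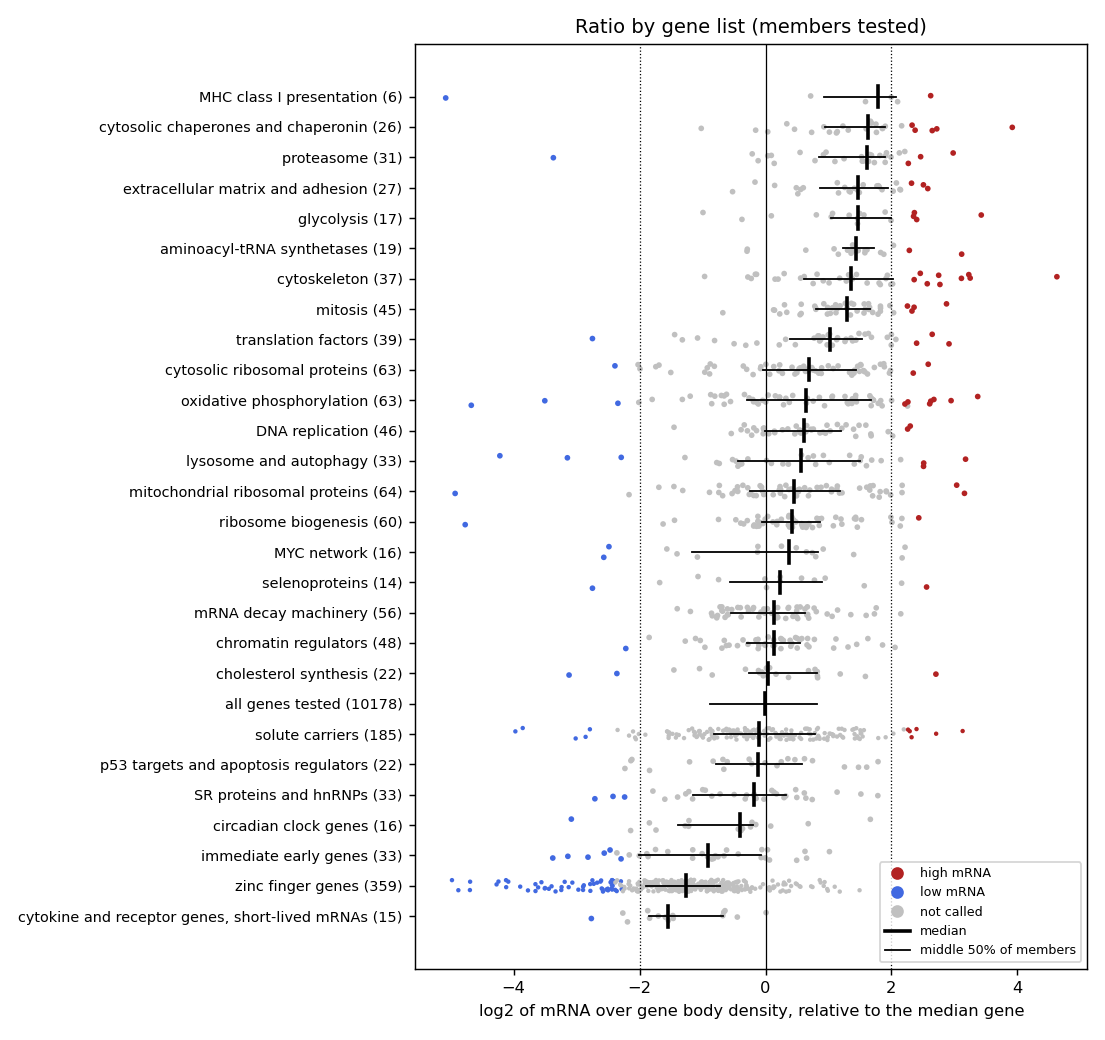
log2 ratio of mRNA to gene body density relative to the median gene (horizontal) of the tested members of each list (rows, with their number), each a point coloured by its call, with the median as a thick bar and the middle 50% as a thin line; points are not drawn for all genes. Chaperones, proteasome, glycolysis and cytoskeleton sit at medians of 1.36 to 1.63, and immediate early genes, zinc finger genes and the cytokine list at −0.92, −1.26 and −1.54.

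Regulators of RNA and chromatin lay near the median gene. Of 33 SR proteins and hnRNPs, which bind nascent RNA and guide splicing, none was called high and 3 were called low, with a median of −0.18 that became 0.07 with the canonical length. PTBP2, a splicing repressor active in neurons, had mRNA densities of 2.16, 2.48 and 2.16 and gene body densities of 2.90 and 2.95, with a log2 ratio of −2.71 (SE 0.08), which was −1.27 and not called with the canonical length. The kinases CLK1 (−2.24) and CLK4 (−2.42), which phosphorylate SR proteins, were called low. The 56 genes of the mRNA decay machinery had a median of 0.14 with none called high and none called low. Of 48 chromatin regulators 1, CHD2 (−2.22), was called low, a call lost without any 1 of the RNA-seq replicates, without PRO-seq replicate 2, with DESeq2, with promoter-proximal counts added and with the canonical length. SMARCA4, the ATPase of the SWI/SNF complex, had mRNA densities of 44.9, 44.5 and 46.4 and gene body densities of 3.42 and 3.12, with a log2 ratio of 1.45.

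In the MYC network MYC itself was highest and MNT lowest. MYC had mRNA densities of 445, 455 and 473 and gene body densities of 22.1 and 16.7, with a log2 ratio of 2.22 (SE 0.12) that did not pass against 4-fold (adjusted p = 0.108). By the design DTMYC cells carry MYC on a lentivirus and lost their own gene, and the counts of both assays do not separate these sources, so the ratio may not be that of the gene's own transcript. MYC passed with promoter-proximal counts added (2.50), without PRO-seq replicate 1 (2.42) and with no filter on low counts (2.22), and had 1.35 with the canonical length, which was not called. MAX, the partner of MYC, had 0.65 (SE 0.08). MNT (−2.57) and MXD3 (−2.49), repressors that compete for MAX, were called low, and both lacked separate exons or a matching span.

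Other lists held few calls and are given by their counts. Of 64 mitochondrial ribosomal protein genes 2 were called high and 1 low (median 0.45), of 60 ribosome biogenesis genes 1 and 1 (0.43), of 33 lysosome and autophagy genes 3 and 3 (0.57), of 22 cholesterol synthesis genes 1 and 2 (0.04), of 14 selenoprotein genes 1 and 1 (0.23), and of 185 solute carriers 6 and 5 (−0.10). The 22 p53 targets and apoptosis regulators held none (−0.11), among them CDKN1A at −0.22 (0.17 without PRO-seq replicate 2). The median of that list was 0.12 with gene bodies of at least 5000 bases, 0.18 with separate exons and matching spans and 0.08 without PRO-seq replicate 2. Of 16 clock genes DBP was called low (−3.08), with a list median of −0.41, but not with the canonical length (−2.04). Of 6 genes of MHC class I presentation, whose median was 1.79, CALR was called high (2.62) and PSMB10 low (−5.08, with 56.1% of its exon bases shared). The 7 rhabdoid line markers had a median of 1.45, with 5 above 0 and KRT8 and GPC3 called high. VIM was the lowest of them, with a log2 ratio of −0.28 (0.37 with the canonical length) and 45.6% of its exon bases facing an exon on the other strand. TERT had −0.16, and 0.089 without PRO-seq replicate 2.

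Genes with a mean count under 20 in 1 assay were left out of the main fit and have no ratio here. The 5 genes with the most gene body counts and a mean RNA count under 20 were TEX14, RBM14-RBM4, UBE2F-SCLY, TMX2-CTNND1 and LUC7L2. TEX14, a gene of germ cells, had 9, 7 and 11 RNA counts and 14769 and 15553 gene body counts. RBM14-RBM4, UBE2F-SCLY and TMX2-CTNND1 are annotated as transcripts through 2 genes each, and all the exon bases of LUC7L2 are shared with another gene. On the other side stood GNAI2, KIFC3, FAM21C, FLG and ENTPD1. GNAI2, a G protein subunit, had 3017, 2399 and 3421 RNA counts and 0 and 0 gene body counts, and KIFC3, a kinesin, had 1955, 1676 and 2104 RNA counts and 0 and 1 gene body counts. GNAI2 also had 0 promoter-proximal counts in both libraries, and whether its reads were assigned elsewhere was not tested.

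The ratios in the dTAG47 libraries, which are other libraries of the same cells with the compound added, were close to those in DMSO. In the dTAG47 libraries mRNA was measured at 24 h and transcription at 4 h of treatment. Both parts of that ratio therefore come from unlike times of the treatment. Of 10198 genes tested there, edgeR called 8.2%, with 267 high (2.62%) and 569 low (5.58%). Of the genes called in DMSO and tested in dTAG47, 229 of 259 high genes were called high and 518 of 564 low genes were called low, and all 823 had the same sign. Across 10104 genes tested in both, the Pearson correlation of the log2 ratios was 0.991, and the median absolute difference was 0.10. Both sets use the same gene lengths and annotation, which makes part of each ratio identical.

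The difference itself, dTAG47 minus DMSO, was tested with edgeR's quasi-likelihood interaction of assay and treatment. It passed an adjusted p of 0.05 in 0 of 10178 genes (0%), and the smallest adjusted p was 0.633. An unadjusted p under 0.05 was found in 525 of the 10178 genes. That is close to the share of 0.05 that would fall there with no difference in any gene. In dTAG47 libraries MYC had mRNA densities of 502, 475 and 456 and gene body densities of 22.5 and 15.9, and its log2 ratio was 2.23 in dTAG47 libraries and 2.22 in DMSO libraries. JUN had mRNA densities of 2.12, 2.08 and 1.64 and gene body densities of 1.98 and 1.90 in dTAG47 libraries. The log2 ratio of JUN was −2.39 in dTAG47 libraries, where it was not called (adjusted p = 0.0820), and −2.56 in DMSO libraries. GPC3 had mRNA densities of 109, 110 and 106 and gene body densities of 1.73 and 1.71 in dTAG47 libraries. The log2 ratio of GPC3 was 3.57 in dTAG47 and 3.60 in DMSO libraries. Densities were scaled apart for each treatment, so their levels are not compared between treatments here. Among the lists, the median with dTAG47 and with DMSO was −1.14 and −0.92 for immediate early genes, −1.29 and −1.26 for zinc finger genes, 1.56 and 1.61 for the proteasome and 1.43 and 1.36 for the cytoskeleton.

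**Figure D5:**
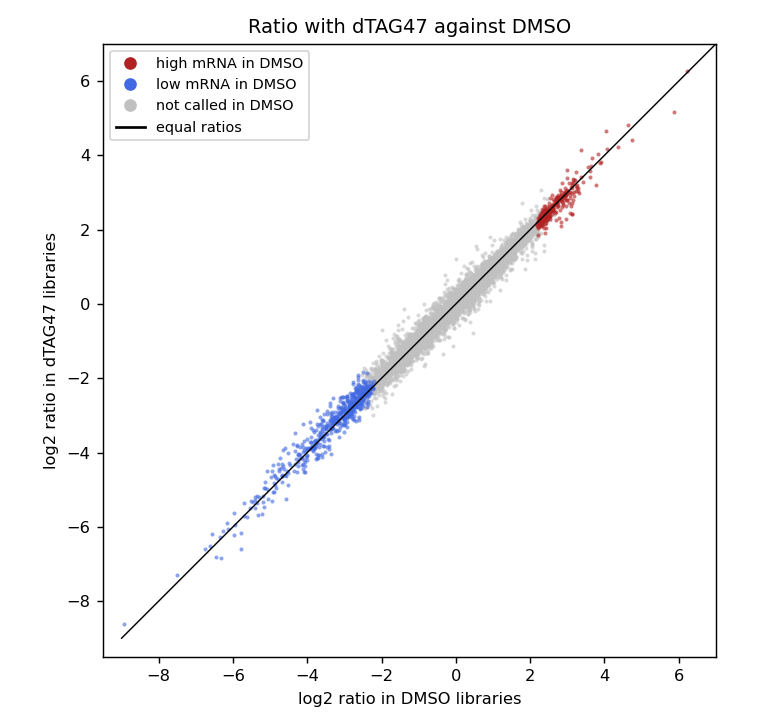
log2 ratio of mRNA to gene body density in dTAG47 libraries (vertical) against DMSO libraries (horizontal) for the 10104 genes tested in both, each a point coloured by its call in DMSO, with the line of equal ratios. Points follow the line over the whole range, with a Pearson correlation of 0.991.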

How the data were processed

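Groups were taken from the labels. Per the submitters' processing notes the tools named are MACS2, DiffBind, featureCounts, STAR, cutadapt, DESeq2 and Bowtie2, with hg19 as the build, and which tool made which table, and whether strand was used, is not given in the sources used here. The authors deposited raw read counts per gene for RNA-seq with a length of summed exons, and raw counts for promoter-proximal regions and gene bodies for PRO-seq. The deposited gene body signal is the gene body count divided by a length, and served here to work out that length, which is the span minus 999 bases in 17655 of 17688 entries. The deposited ChIP-seq and ATAC-seq peak lists, called per sample, give each peak a score, and only peak positions were used.

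Densities are counts per kilobase, divided by the TMM effective library size (within each assay) times 1e-06. Genes needed a mean count of at least 20 in both assays and a gene body of at least 1000 bases. edgeR 4.0.16 in R 4.3.3 fitted all 5 DMSO libraries with log length as an offset, and its glmTreat, two-sided, tested the centred ratio against 4-fold, with Benjamini-Hochberg adjustment over all genes tested at 0.05. The SE is the log2 ratio over the root of the quasi-likelihood F. The common biological coefficient of variation was 0.0797. The steps were tested on simulated data. dTAG47 libraries were scaled and fitted in the same way on their own, and a fit of all 10 libraries gave the interaction. Exons, canonical transcripts and 3′ untranslated regions came from GENCODE v44 lifted to GRCh37, the same build, and 10117 of 10178 genes had a canonical transcript. Separate exons and matching spans mean under 10% of exon bases shared with other genes on either strand and a canonical transcript over at least 80% of the PRO-seq entry.

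Named genes are the 12 highest and 12 lowest by the rule given in the text. Added to these are the highest and lowest member of each list with 5 or more genes tested, and a fixed set of 15 genes. The 5 most counted genes of each assay with a mean count under 20 in the other are named too. 1 gene that the rule takes in is not reported here. Further list members were named after their values were seen. The genes, lists and tests were chosen with earlier results of these data known. Replicate numbers are shared by both assays, but replicates 1 and 2 did not deviate together (Pearson correlation of their differences −0.014 across genes), and the main fit has no replicate block. Alternatives were DESeq2 1.42.0, its size factors, other thresholds and count filters, promoter-proximal counts added, longer gene bodies and each library left out. The canonical length, the separate exons and the upstream distance were added after the data were seen. SEs cover the spread of these libraries only.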

Additional observations from a re-analysis of the deposited data

How the results depend on the processing

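Calls beyond 4-fold (263 high and 577 low in DMSO, 267 and 569 in dTAG47 libraries) changed most with the threshold and the filter. Against 2-fold, 1672 were high and 1868 low in DMSO (1693 and 1872 in dTAG47), and against 8-fold 19 and 181 (22 and 171). With at least 20 counts in either assay 413 were high and 917 low (dTAG47 417 and 873), and with no filter 436 and 999 (dTAG47 451 and 962). With at least 100 counts in both assays 374 were low (dTAG47 369), and with separate exons and matching spans 277 (dTAG47 272), where fewer genes were tested. The other alternatives kept both counts within 1.5 times: in DMSO DESeq2 gave 220 and 499, and leaving out 1 library 236 to 285 high and 529 to 623 low. With the canonical length 371 were high and 647 low, and 167 and 427 of them were also called with the deposited length.

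A replicate block over replicates 1 and 2 gave 238 high and 522 low, against 241 and 535 for these libraries without the block. The replicates share only a number, so this is no test of pairing.

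The Spearman correlation of mRNA with gene body density was 0.688 with at least 100 counts, 0.788 with at least 20 in either assay, 0.756 with gene bodies of at least 5000 bases and 0.776 with separate exons and matching spans, and 0.737 to 0.743 without 1 library (lowest without PRO-seq replicate 1). The causes were not tested.

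Of 1998 values of 94 named genes under alternatives, 1867 kept their direction and side of the threshold, 60 lost the call, 28 gained one, 26 moved without a test and 17 turned their sign. HIST1H2BD, the 1 called gene among these, was at −0.49 with promoter-proximal counts added. CARS with the canonical length was at 1.03, DNAJB6 at 1.02, SLC16A3 at 0.25, TPM1 at 1.28, VIM at 0.37 and ICAM1 at −0.22. ICAM1, at 0.01 as reported, also turned with TMM over all libraries (−0.0061), at least 100 counts (−0.078), gene bodies of at least 5000 bases (−0.051), the replicate block (−0.017) and these libraries without it (−0.020). Without 1 library ICAM1 ranged over −0.12 to 0.13, CDKN1A over −0.55 to 0.17 and TERT over −0.40 to 0.089. Counts limit genes such as JUN and ZNF493, whose SEs are 0.20 and 0.24, against a median of 0.10. Genes with a mean count under 20 in either assay have no ratio in the main fit, and the looser filters above take some of them in.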
